A study of Homo sapiens with 6 samples.

Results

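Kinesins are motor proteins that use ATP to move along microtubules or to shorten them. Some assemble the mitotic spindle, align chromosomes and complete cytokinesis, and their genes are transcribed mainly late in the cell cycle. Others carry organelles, vesicles and cilium components in cells that need not divide, and several of these are enriched in neurons.

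The kinesin genes were examined in DMS53, an established small cell lung cancer (SCLC) line with neuroendocrine features, in 3 control libraries from cells transduced with an empty lentiviral vector and 3 libraries from cells transduced with a vector for ONECUT2 (OC2-OE). The comparison addresses how kinesin expression differed when OC2 was enforced. Both groups were selected with puromycin, and per the study's methods both vectors encode a green fluorescent protein, joined to OC2 in the OC2-OE vector, with constitutive expression. The study describes the libraries of a group as independent experiments, but no label names separate clones or transductions, so p-values measure only the spread between these libraries. Gene symbols that begin with KIF or KIFC followed by a number and at most the letter A, B or C were taken as members, which gave 42 of the 62696 annotated genes. A given list of 12 mitotic kinesins (KIF2C, KIF4A, KIF11, KIF14, KIF15, KIF18A, KIF18B, KIF20A, KIF20B, KIF22, KIF23 and KIFC1) was set against the other 30. The name of this second set as transport kinesins is only partly right, since KIF2A, KIF4B and KIF24 have described roles at spindles, chromosomes or centrioles, and CENPE, a mitotic kinesin with another kind of symbol, is not a member. Of the 42 genes, 39 had enough counts to be tested, all 12 on the mitotic list and 27 of the other 30.

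The libraries held between 16533284 and 19099337 read pairs assigned to genes. ONECUT2 checked the labels and rose from 24.6 ± 0.332 to 3944 ± 70.3 CPM (SD, n = 3), where CPM is the count relative to library size after scaling by edgeR's TMM method. All 10 genes of a neuroendocrine marker list were detected, and their summed level in OC2-OE libraries was 87.4% of that in control libraries, a sum weighted to its most abundant genes. The median log2 fold change of the list was -1.22, and 7 were lower and 2 higher (28.7% and 27.8% among all genes tested), from GRP at -4.41 and DDC at -2.52 to CHGA at 1.06 and SCG2 at 1.504 on the log2 scale. Markers of other cell types were sparse, with sums of 22.4 and 30.0 CPM for 5 fibroblast genes, 4.02 and 8.13 CPM for 5 blood cell genes and 14.02 and 4.38 CPM for 4 endothelial genes in control and OC2-OE libraries. CD3E had no count and PTPRC at most 3 counts in a group. Among those tested, 2 of 3 fibroblast genes and 2 of 2 blood cell genes were called higher, beside 27.8% of all genes. Of 3 endothelial genes tested, 2 were called lower, beside 28.7% of all genes. Among the called genes, PDGFRB had 8 and 49 counts in control and OC2-OE libraries, LYZ 21 and 122, and CDH5 52 and 3. Each of them passed the count filter only through the group where it was higher, so the filter bears on the direction of these calls. The part of these markers of other cell types in the kinesin results was not tested.

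All 12 mitotic kinesins were lower in OC2-OE cells at an adjusted p under 0.001, the study's threshold, and all 12 had fallen by at least 1 on the log2 scale. Of all 17307 genes tested, 28.7% were called lower and 9.04% were called lower with a change of at least that size. The other kinesins had no common direction, with 6 lower, 9 higher and 12 not called among 27. The 9 include KIF7, which had few counts and passed the count filter only through the OC2-OE libraries. Across all genes, 27.8% were called higher, and 56.5% were called in either direction, against 15 of these 27 kinesins. A call with a rise of at least 1 on the log2 scale was made for 8.29% of all genes and for 4 of the 27, KIF7 among them. The 12 kinesins not called had absolute log2 fold changes from 0.03 to 0.91. Control and OC2-OE libraries did not overlap in any of the 12 mitotic genes, and 36.7% of all genes tested were lower without overlap. In either direction, 21 of the 27 other kinesins and 73.2% of all genes were without overlap. Calls and adjusted p-values come from the quasi-likelihood test of edgeR, adjusted by Benjamini-Hochberg over all genes tested. Median log2 fold changes were -1.78 on the mitotic list and 0.09 among the other kinesins, a difference of -1.87, against 0.01 for all genes tested. Fold changes ran from -2.67 to -1.27 on the mitotic list and from -3.18 to 2.0 outside it, so the sets overlap. Genes are not replicates, and no test was made of one set against the other. Because the RNA came from whole cultures, fewer cells in mitosis and less RNA of these genes per cell cannot be told apart.

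**Figure D1:**
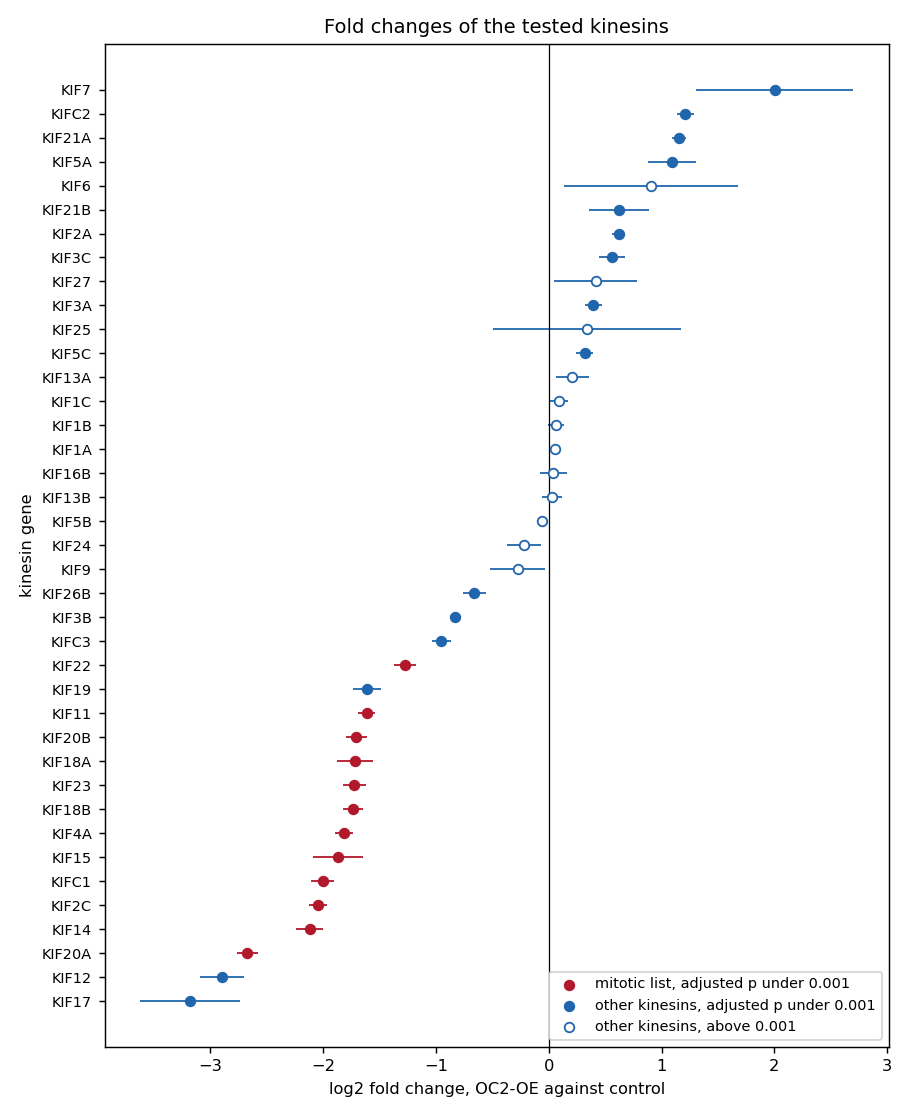
Log2 fold changes (horizontal axis, OC2-OE against control) of the 39 tested kinesin genes (vertical axis), with bars for the 95% interval; red marks the mitotic list, blue the other kinesins, filled points an adjusted p under 0.001. All 12 red points lie between -2.67 and -1.27, while the blue points spread from -3.18 to 2.0.

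Motors that build the spindle were described first. KIF11, the motor that pushes spindle poles apart, had 142, 140 and 138 CPM in control replicates 1, 2 and 3 and 43.8, 46.5 and 47.1 CPM in OC2-OE replicates 1, 2 and 3, a log2 fold change of -1.62 ± 0.040 (SE, adjusted p = 6.40e-69). KIF15, which can share this task with KIF11, had 16.2, 16.1 and 14.4 CPM in control and 4.17, 4.96 and 3.68 CPM in OC2-OE libraries, a log2 fold change of -1.87 ± 0.11 (SE, adjusted p = 1.71e-31). KIFC1, a motor that moves towards minus ends and gathers spindle poles, had 79.1, 80.9 and 80.1 CPM in control and 19.7, 20.2 and 19.98 CPM in OC2-OE libraries, a log2 fold change of -2.0 ± 0.053 (SE, adjusted p = 1.27e-65). Each of these genes was below 35% of its control level and the libraries of the 2 groups were far from overlapping.

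Motors that act on chromosomes and microtubule ends fell too, by amounts that differed among them. KIF2C, which depolymerizes microtubules at centromeres, had 150, 150 and 147 CPM in control and 38.04, 35.3 and 35.0 CPM in OC2-OE libraries, a log2 fold change of -2.04 ± 0.041 (SE, adjusted p = 3.14e-78). KIF18A, which limits chromosome oscillation, had 29.1, 28.3 and 27.4 CPM in control and 8.56, 9.52 and 7.68 CPM in OC2-OE libraries, a log2 fold change of -1.72 ± 0.082 (SE). Its relative KIF18B, which trims astral microtubules, had 99.0, 99.7 and 97.2 CPM in control and 28.91, 29.7 and 30.1 CPM in OC2-OE libraries, a log2 fold change of -1.74 ± 0.046 (SE). The paired relatives thus differed by less than their standard errors.
KIF4A, a chromosome-bound motor that also sets the length of midzone microtubules, had 148, 148 and 147 CPM in control and 41.2, 42.01 and 42.4 CPM in OC2-OE libraries, a log2 fold change of -1.82 ± 0.039 (SE). KIF22, the motor that pushes chromosome arms away from the poles, had 76.9, 74.6 and 72.4 CPM in control and 28.96, 33.1 and 30.7 CPM in OC2-OE libraries. At a log2 fold change of -1.27 ± 0.050 (SE, adjusted p = 2.92e-48), KIF22 was the least changed of the 12 and kept 41.4% of its control level.

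Cytokinesis motors held both the largest change on the list and ones near its median. KIF20A (ENSG00000112984.12, chr5:138178719-138187723, plus strand, GENCODE 42 on GRCh38), which brings the chromosomal passenger complex to the midzone, had 145, 144 and 137 CPM in control and 23.8, 22.3 and 20.6 CPM in OC2-OE libraries, a log2 fold change of -2.67 ± 0.046 (SE, adjusted p = 4.34e-85). It kept 15.7% of its control level, and 200 of the 17307 genes tested (1.16%) had a fold change as low. KIF14, which works with citron kinase, had 62.6, 58.2 and 65.8 CPM in control and 14.7, 13.7 and 14.5 CPM in OC2-OE libraries, a log2 fold change of -2.12 ± 0.061 (SE). KIF23, the motor subunit of centralspindlin, had 81.2, 78.4 and 77.9 CPM in control and 22.2, 26.4 and 23.3 CPM in OC2-OE libraries, a log2 fold change of -1.73 ± 0.052 (SE). KIF20B, a relative of KIF20A, had 93.3, 91.3 and 91.4 CPM in control and 26.6, 28.2 and 30.0 CPM in OC2-OE libraries, a log2 fold change of -1.70 ± 0.048 (SE). Within this family, KIF20A fell farther than KIF23, and the ratio of their levels per exon length dropped from 3.06 ± 0.0712 to 1.59 ± 0.206 (SD, n = 3). In contrast, the ratio of KIF23 to RACGAP1, its partner in centralspindlin, was 0.413 ± 0.00894 in control and 0.382 ± 0.0244 in OC2-OE libraries (SD, n = 3), with all 3 OC2-OE libraries below the control libraries.

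**Figure D2:**
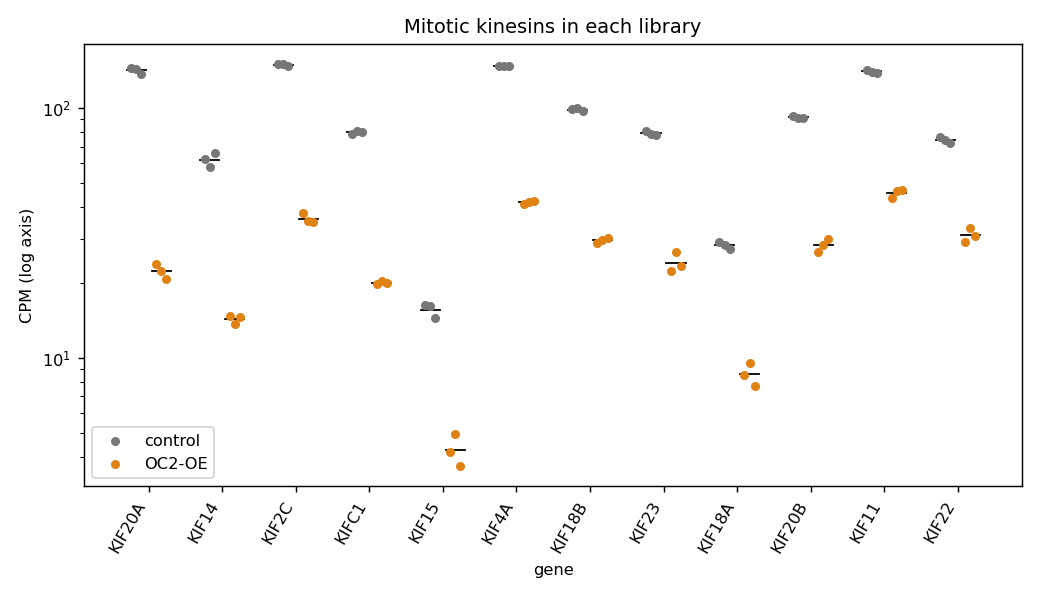
CPM (vertical log axis) of the 12 mitotic kinesins (horizontal axis, from the most to the least changed) in each control (grey) and OC2-OE (orange) library, with a black line at the mean of 3 libraries. In every gene the orange points lie below the grey ones, and the coefficient of variation within a group was at most 15.2%.

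Other genes of the same processes were read from lists. Among 11 spindle and midzone partners, 10 were lower and 1 not called, beside 28.7% lower among all genes tested, and their median log2 fold change was -1.78. HMMR and CEP55, which act at spindle poles and at abscission, had log2 fold changes of -2.22 and -2.15, and CENPE, the kinesin of kinetochores, had -2.14. CIT, the citron kinase that binds KIF14, changed least among those called, from 101 ± 0.782 to 74.5 ± 2.11 CPM (SD, n = 3). Its log2 fold change was -0.45. NUSAP1 did not pass, on 54 and 35 counts. All 20 genes of a G2/M list were lower, with a median of -2.24 that was below the median of the mitotic kinesins, and PLK1 and CDC20, regulators of mitotic entry and exit, had -2.75 and -2.55. An S phase list was also lower in all of its 20 genes but by less, with a median of -0.93. A fall of at least 1 on the log2 scale was called for 5 of the 20 S phase genes and for all 20 G2/M genes, beside 9.04% of all genes tested. GINS2 and RRM2, needed for fork movement and nucleotide supply, had -2.14 and -1.53. Summed over the G2/M list, the libraries held 2949 to 3023 CPM in control and 672 to 679 CPM in OC2-OE cells. The summed CPM of the mitotic kinesins in OC2-OE libraries was 27.6% of control, against 22.6% for the G2/M list and 52.7% for the S phase list. How far a change in the share of cycling cells enters the kinesin values was not tested.

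Since the mitotic kinesins fell together, their promoters were read for letters known from late cell cycle genes. Such promoters often hold a cell cycle genes homology region (CHR), which the DREAM and MMB complexes recognise, and CCAAT boxes, the sites of the factor NF-Y. The windows are from RefSeq on GRCh38.p14 and run from 250 bases before a transcription start to 50 bases after it, and 34 of the 42 kinesins had at least a single window, including all 12 on the mitotic list. For the 6 mitotic kinesins with a TTTGAA or TTTAAA match lying wholly in the last 100 bases before the start, and for KIF21A and KIF3B as kinesins outside the list that rose and fell, these 100 bases are shown 5′ to 3′ on the strand of the gene. Capitals mark TTTGAA, which reads TTCAAA on the opposite strand, the palindrome TTTAAA, and CCAAT, which reads ATTGG on the opposite strand.
KIF20A, chr5:138179012-138179111, plus strand: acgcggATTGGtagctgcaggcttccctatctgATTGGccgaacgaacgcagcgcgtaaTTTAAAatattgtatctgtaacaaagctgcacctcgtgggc
KIF23, chr15:69414249-69414348, plus strand: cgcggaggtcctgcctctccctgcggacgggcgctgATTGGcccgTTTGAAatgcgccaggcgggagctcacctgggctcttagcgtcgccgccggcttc
KIF4A, chrX:70290004-70290103, plus strand: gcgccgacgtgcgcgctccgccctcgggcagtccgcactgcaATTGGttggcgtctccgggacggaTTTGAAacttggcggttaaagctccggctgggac
KIF11, chr10:92593030-92593129, plus strand: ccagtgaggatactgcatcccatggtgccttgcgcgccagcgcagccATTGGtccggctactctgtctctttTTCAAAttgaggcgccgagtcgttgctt
KIF18A, chr11:28108157-28108256, minus strand: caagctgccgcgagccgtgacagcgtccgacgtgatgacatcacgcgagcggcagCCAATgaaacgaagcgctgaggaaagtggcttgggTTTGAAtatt
KIF15, chr3:44761694-44761793, plus strand: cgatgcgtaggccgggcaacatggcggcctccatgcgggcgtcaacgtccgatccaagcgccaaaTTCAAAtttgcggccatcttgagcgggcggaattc
KIF21A, chr12:39443121-39443220, minus strand: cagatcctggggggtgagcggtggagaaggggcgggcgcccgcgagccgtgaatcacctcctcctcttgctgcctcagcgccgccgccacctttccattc
KIF3B, chr20:32277551-32277650, plus strand: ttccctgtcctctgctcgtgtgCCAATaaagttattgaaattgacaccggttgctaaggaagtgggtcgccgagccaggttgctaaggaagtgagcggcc

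In KIF23, KIF4A, KIF11 and KIF18A a CCAAT match lay upstream of the TTTGAA match, whereas KIF20A had 2 CCAAT matches followed by TTTAAA. Counting both strands, TTTGAA was found in 9 of the 13 windows of mitotic kinesins (69.2%), in 2 of the 30 windows of other kinesins (6.67%) and in 15.2% of all 35116 RefSeq windows. The 2 other kinesins were KIF4B and KIF5B, with the match of KIF5B 140 bases before the start. CCAAT was found in 10 of 13 mitotic windows (76.9%), 10 of 30 other windows (33.3%) and 34.6% of all windows, and both motifs together in 8 of 13, 2 of 30 and 5.9%. KIF2C had TTTAAA only and KIF22 had CCAAT only. KIF15 had no CCAAT match. The AT content was 37.2% in windows of mitotic kinesins, 33.5% in those of other kinesins and 42.5% in all windows.
Other lists were read in the same way. TTTGAA was in 8 of 10 windows of spindle and midzone partners (80.0%) and 11 of 18 windows of G2/M genes (61.1%), but in 1 of 25 windows of S phase genes (4.0%). CCAAT did not separate these lists in that way, with 72.0% of the windows of S phase genes and 88.9% of those of G2/M genes. Of 32 windows of kinesin light chains and cargo adaptors, 4 held TTTGAA (12.5%). These matches describe sequence only, and whether any of them is bound was not measured. Of 16 genes listed as regulators of cell cycle promoters, 7 were lower and 4 higher, beside 28.7% and 27.8% of all genes tested. Their median was -0.05 on the log2 scale and turned to 0.00023 with library size only. FOXM1 and MYBL2, which activate G2/M genes, had log2 fold changes of -1.58 and -1.46, while E2F5 and the NF-Y subunit NFYB had 0.32 and 1.02.

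**Figure D3:**
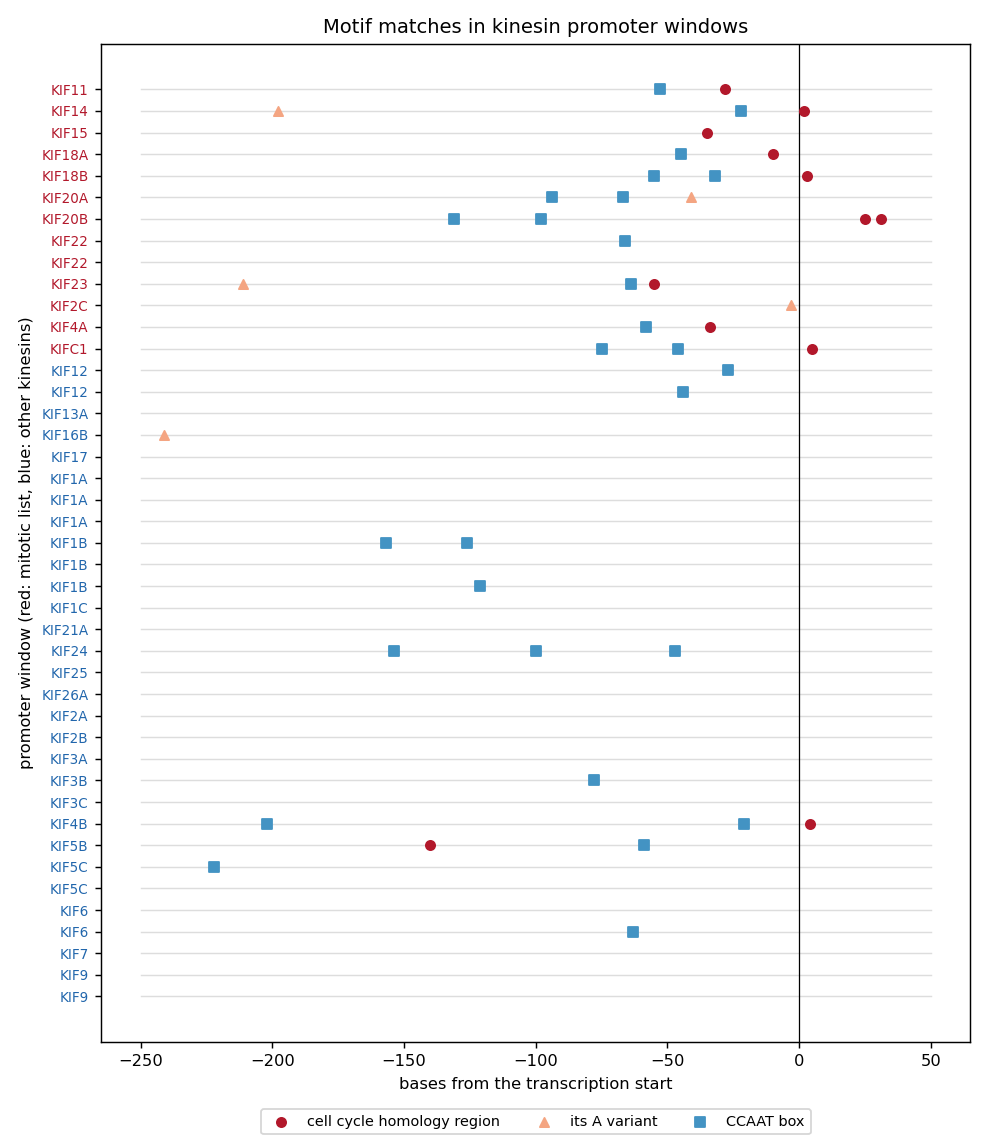
Positions of motif matches on either strand (horizontal axis, bases from the transcription start at 0) in the 43 promoter windows of 34 kinesin genes (vertical axis, mitotic list in red, other kinesins in blue); circles mark TTTGAA, triangles TTTAAA and squares CCAAT, and a gene with several starts has several lines. Circles are in 9 of 13 red windows, between 55 bases before and 31 bases after the start, and in 2 of 30 blue ones.

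Among transport kinesins enriched in neurons, 4 of 6 were higher, 1 lower and 1 not called, beside 27.8% higher and 28.7% lower among all genes tested. KIF5A, a kinesin-1 heavy chain of neurons, had 6.42, 5.50 and 6.09 CPM in control and 11.95, 12.7 and 13.9 CPM in OC2-OE libraries, a log2 fold change of 1.09 ± 0.11 (SE, adjusted p = 7.74e-17). KIF21B, which restrains microtubule growth in neurons and lymphocytes, had 4.17, 5.26 and 4.24 CPM in control and 7.15, 7.503 and 6.42 CPM in OC2-OE libraries, a log2 fold change of 0.63 ± 0.14 (SE, adjusted p = 2.04e-05). KIF3C, a kinesin-2 subunit, had 25.6, 24.8 and 25.2 CPM in control and 38.3, 37.0 and 36.1 CPM in OC2-OE libraries, a log2 fold change of 0.56 ± 0.060 (SE, adjusted p = 3.19e-15). In these genes every OC2-OE library was above every control library. Among the 4 called higher, KIF5C rose least, by 0.32 on the log2 scale.
KIF17 (chr1:20664014-20718017, minus strand), the kinesin-2 motor that carries receptors into dendrites, went the other way. It had 7.01, 6.27 and 4.67 CPM in control and 0.470, 0.635 and 0.878 CPM in OC2-OE libraries, a log2 fold change of -3.18 ± 0.23 (SE, adjusted p = 6.22e-26), the lowest of the 39 tested kinesins. This rests on 312 control counts against 36 OC2-OE counts. KIF1A, which carries synaptic vesicle precursors, was the most counted kinesin, with 869, 859 and 886 CPM in control and 901, 897 and 922 CPM in OC2-OE libraries. The groups did not overlap, but the log2 fold change of 0.06 (95% interval 0.02 to 0.10) did not pass 0.001 (adjusted p = 0.00780), and it passed when libraries were scaled by size only or by the upper quartile.

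Of 10 widely expressed transport kinesins, 2 were lower, 2 higher and 6 not called, beside 28.7% lower and 27.8% higher among all genes tested. KIFC2, a motor that moves towards minus ends and is counted here although it is best known from neurons, had 52.6, 57.1 and 57.8 CPM in control and 128, 128 and 132 CPM in OC2-OE libraries, a log2 fold change of 1.21 ± 0.039 (SE, adjusted p = 1.73e-56). KIFC3, which acts at adherens junctions and the Golgi, had 86.6, 88.6 and 97.0 CPM in control and 46.4, 46.8 and 47.3 CPM in OC2-OE libraries, a log2 fold change of -0.95 ± 0.044 (SE, adjusted p = 1.72e-41). These relatives therefore moved in opposite directions. KIF5B, the main kinesin-1 heavy chain outside neurons, had 472, 459 and 470 CPM in control and 444, 456 and 441 CPM in OC2-OE libraries. Its log2 fold change of -0.06 (95% interval -0.11 to -0.02) did not pass (adjusted p = 0.00868). The kinesin-3 carriers KIF1B, KIF1C, KIF13A, KIF13B and KIF16B had log2 fold changes of 0.07, 0.09, 0.21, 0.03 and 0.04, and none was called. For KIF13B and KIF16B the sign turned when a control library was left out.

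The heterotrimeric kinesin-2, which carries cargo in cilia and axons, is built from KIF3A, KIF3B or KIF3C and the adaptor KIFAP3, and its genes did not move together. KIF3B had 412, 406 and 405 CPM in control and 229, 232 and 228 CPM in OC2-OE libraries, a log2 fold change of -0.83 ± 0.025 (SE, adjusted p = 3.22e-60). KIF3A rose instead, from 73.7, 75.3 and 69.2 CPM to 96.3, 97.6 and 93.4 CPM, a log2 fold change of 0.40 ± 0.039 (SE, adjusted p = 6.29e-17). KIFAP3 rose by 0.32. Per exon length, the ratio of KIF3B to KIF3A dropped from 6.29 ± 0.261 to 2.69 ± 0.0375 (SD, n = 3), while the ratio of KIF3A to KIFAP3 was 1.57 ± 0.122 and 1.65 ± 0.107 (SD, n = 3), a difference within the spread. The exon length counts every annotated exon of a gene once and can exceed that of the expressed transcripts, so ratios between genes depend on the annotation, whereas the fold change of such a ratio between groups does not.

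**Figure D4:**
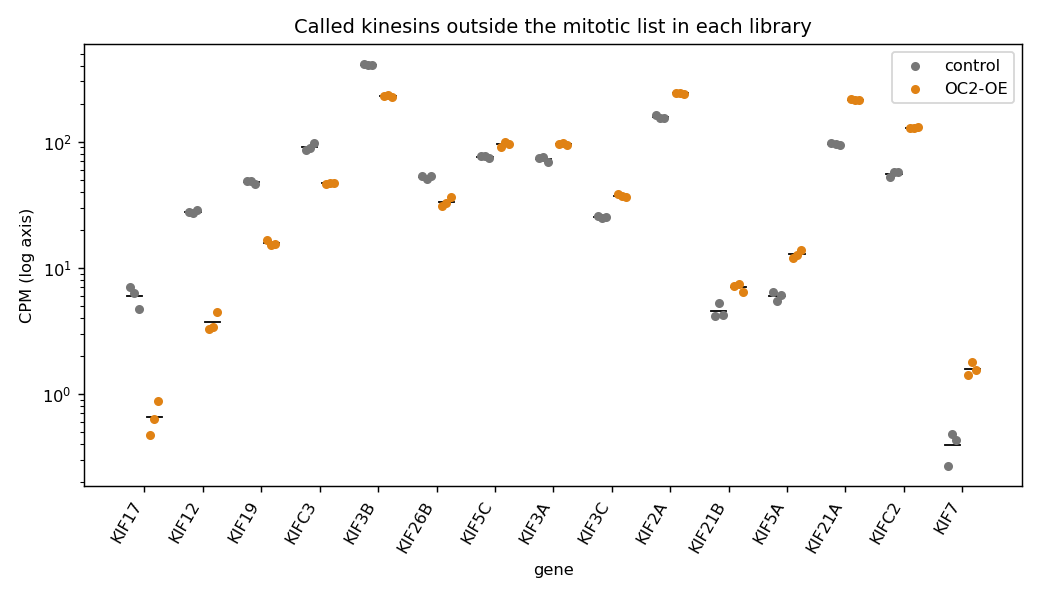
CPM (vertical log axis) of the 15 kinesins outside the mitotic list with an adjusted p under 0.001 (horizontal axis, from the most lowered to the most raised) in each control (grey) and OC2-OE (orange) library, with a black line at the mean of 3 libraries. Grey lies above orange in 6 genes, from KIF17 to KIF26B, and below it in 9, from KIF5C to KIF7.

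Of the kinesins tied to cilia and centrioles, 1 of 6 was lower, 1 higher and 4 not called, beside 28.7% lower and 27.8% higher among all genes tested. Their median was 0.10 on the log2 scale and turned to -0.24 when at least 10 counts were required in every library. KIF19, a kinesin-8 that trims microtubules at the tips of cilia, had 49.0, 48.7 and 46.5 CPM in control and 16.6, 15.2 and 15.4 CPM in OC2-OE libraries, a log2 fold change of -1.61 ± 0.063 (SE, adjusted p = 1.91e-48). KIF7, a regulator of Hedgehog signalling at the cilium tip, had 0.268, 0.478 and 0.430 CPM in control and 1.41, 1.79 and 1.54 CPM in OC2-OE libraries, a log2 fold change of 2.0 ± 0.36 (SE, adjusted p = 3.05e-07) that rests on 20 and 86 counts. KIF7 passed the count filter only through the OC2-OE libraries, where it was high. It was not tested when at least 10 counts were required in every library. KIF24, a centriole kinesin, had 25.6, 19.5 and 20.4 CPM in control and 17.6, 19.4 and 19.6 CPM in OC2-OE libraries, and these overlapped. KIF6, KIF9 and KIF27 did not pass, with 23 and 46, 382 and 334, and 133 and 188 counts in control and OC2-OE libraries.

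A further list held 4 kinesins outside the mitotic list that act on microtubule ends (KIF2A, KIF2B, KIF4B and KIF21A). Of these, 2 were tested and both were higher, beside 27.8% of all genes tested. The list is not complete, since KIF19 and KIF21B, described above as acting on microtubule tips or growth, were placed elsewhere. KIF19 was lower and KIF21B higher. KIF21A (chr12:39293228-39443390, minus strand), which slows microtubule growth at the cell cortex, had 97.0, 96.3 and 94.3 CPM in control and 216, 212 and 213 CPM in OC2-OE libraries, a log2 fold change of 1.16 ± 0.031 (SE, adjusted p = 2.60e-64). KIF2A, a depolymerase of spindle poles and growing axons, had 163, 154 and 155 CPM in control and 241, 243 and 241 CPM in OC2-OE libraries, a log2 fold change of 0.62 ± 0.028 (SE, adjusted p = 1.21e-41). KIF2B had no count in any library, and KIF4B, an intronless near-copy of KIF4A, had 11 control counts against 1 OC2-OE count, a ratio of 0.0859 with a 95% counting interval of 0.00200 to 0.591. Reads of KIF4A can fall on KIF4B, so the value of KIF4B is uncertain.

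Among the remaining members, KIF12 (chr9:114086126-114099292, minus strand), an epithelial kinesin of liver and kidney, had 27.8, 27.2 and 28.7 CPM in control and 3.29, 3.41 and 4.50 CPM in OC2-OE libraries, a log2 fold change of -2.90 ± 0.10 (SE, adjusted p = 1.64e-53). Of the 39 tested kinesins only KIF17 had a lower fold change, so both of the most lowered tested members lie outside the mitotic list. KIF26B, an atypical kinesin of cell adhesion and migration, had 53.3, 50.8 and 53.3 CPM in control and 30.8, 32.4 and 36.6 CPM in OC2-OE libraries, a log2 fold change of -0.66 ± 0.054 (SE, adjusted p = 7.44e-22). KIF25 did not pass on 26 and 35 counts, and KIF26A had 1 count in each group and was not tested.

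Kinesins are also sorted into families by the sequence of their motor domain, and several families held both lower and higher genes. Among all genes tested, 28.7% were lower and 27.8% higher. In kinesin-13 the mitotic KIF2C had a log2 fold change of -2.04 and KIF2A 0.62, while KIF24 at -0.22 was not called. When single libraries were omitted, the value of KIF24 ran from -0.296 to -0.086. In kinesin-4 the mitotic KIF4A had -1.82, whereas KIF7, KIF21A and KIF21B had 2.0, 1.16 and 0.63 and KIF27 at 0.42 was not called. Among the 7 kinesin-3 genes, only the mitotic KIF14 was called, at -2.12. Kinesin-14 held KIFC1 at -2.0, KIFC3 at -0.95, KIFC2 at 1.21 and KIF25 at 0.34, which was not called. The value of KIF25 ran from -0.046 to 1.16 over omitted libraries. Kinesin-2, with no member on the mitotic list, held 2 lower genes (KIF3B and KIF17) and 2 higher ones (KIF3A and KIF3C). In contrast, all 3 kinesin-8 genes were lower, including the ciliary KIF19, as were both kinesin-12 genes, KIF15 and KIF12.

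Levels of different kinesins were compared per kilobase of exon (RPKM). KIF5B, KIF3B and KIF1A had the highest levels in control libraries, with 79.6 ± 1.22, 66.6 ± 0.653 and 48.7 ± 0.765 RPKM (SD, n = 3), followed by KIF2C with 40.8 ± 0.466 and KIF20A with 36.8 ± 1.16. Mitotic kinesins were 7 of the 10 highest members in control and 2 of the 10 highest in OC2-OE libraries, where KIFC2 with 29.03 ± 0.493 RPKM and KIF21A with 21.1 ± 0.208 came next after the same leading 3. Summed over the list, the mitotic kinesins went from 237 ± 2.94 to 63.0 ± 0.852 RPKM (SD, n = 3), while the other 30 went from 310.1 ± 2.74 to 301.1 ± 1.56 RPKM. In single libraries, mitotic genes made up 43.4%, 43.6% and 42.9% of the kinesin total in control and 17.3%, 17.5% and 17.2% in OC2-OE libraries.

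**Figure D5:**
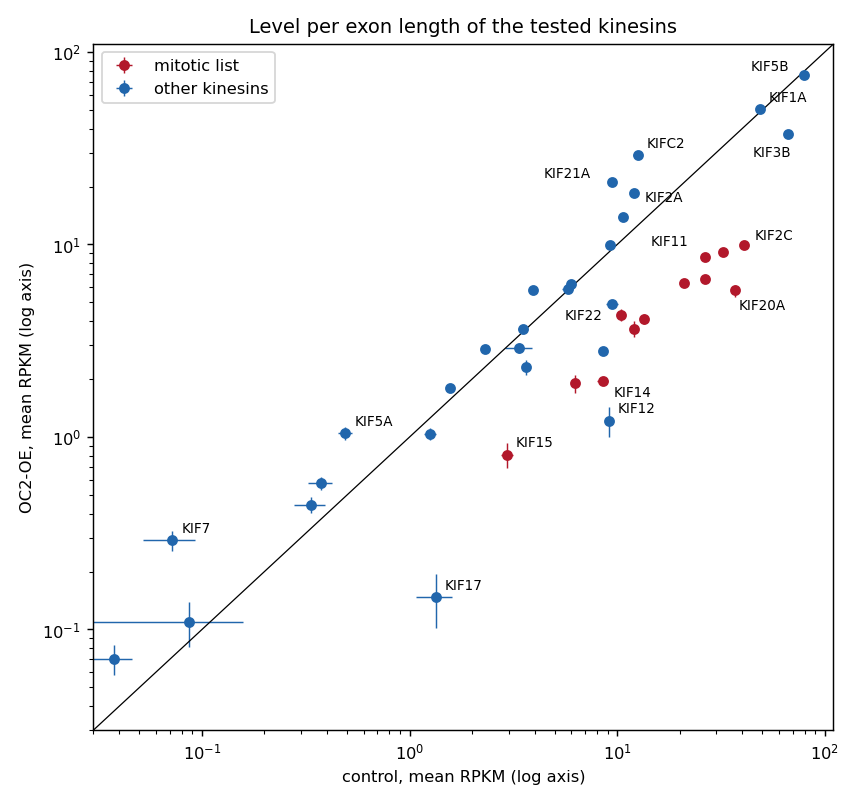
Mean RPKM in control (horizontal log axis) and OC2-OE libraries (vertical log axis) of the 39 tested kinesins, mitotic list in red and others in blue, with bars of 1 SD over 3 libraries and a line of equal levels. All 12 red points lie below the line, while KIF5B and KIF1A, among the highest, lie close to it.

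Light chains and adaptors join kinesins to cargo. Of 25 on the list, 15 were higher, 4 lower and 6 not called, beside 27.8% higher and 28.7% lower among all genes tested. Their median log2 fold change was 0.31. FEZ1, an adaptor of kinesin-1 in axons, had 1.23, 1.55 and 0.738 CPM in control and 48.2, 51.0 and 50.6 CPM in OC2-OE libraries, a log2 fold change of 5.39 ± 0.11 (SE, adjusted p = 3.66e-77). PPFIA3, a liprin that binds KIF1A, rose by 1.00. HAP1, which binds kinesin light chain, went from 20.8 ± 0.697 to 4.45 ± 0.151 CPM (SD, n = 3), which is -2.22 on the log2 scale, and PPFIA2, another liprin, had -1.67.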

How the data were processed

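RNA-Seq libraries for 3 control and 3 OC2-OE samples were analysed. The authors deposited raw counts of read pairs per gene, made with STAR version 2.7.9a and featureCounts version 1.6.0 on GENCODE release 42 (GRCh38), strand-specific and with exons summed, without normalization or filter. Ensembl identifiers gave a symbol for 62672 of the 62696 genes. Library depth (16533284 to 19099337) limits genes with few counts, so their counts are given. The counting interval of KIF4B covers counting error only. Intervals of log2 fold changes span 1.96 standard errors either way.

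Counts were scaled by TMM, filtered with filterByExpr and tested with edgeR version 4.0.16 (R 4.3.3, quasi-likelihood, robust, no replicate term) over 17307 genes, with Benjamini-Hochberg adjustment over all of them and the study's threshold of 0.001. The standard error (SE) was derived from the size of the log2 fold change and the F statistic of its test. RPKM uses the deposited exon length. The fit was tested on simulated data in which far fewer genes changed than were called here. That check therefore does not cover a change this broad. Libraries of a group differed by 1.32 to 2.07 times the sampling variance, so none was counted as a duplicate. Same-numbered libraries did not deviate together (correlations of 0.00097 to 0.016).

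The members and gene lists were chosen with earlier results of these data known. Named genes are all mitotic kinesins, other kinesins called with a change of at least 0.5 on the log2 scale or among the 3 highest levels, and the 2 genes moving farthest each way on each list; further members and partners were named after their values were seen. Alternatives were DESeq2 size factors, library size, upper quartile, DESeq2 version 1.42.0, limma voom version 3.58.1, no filter, a floor of 10 counts in each library, omission of ONECUT2, a replicate block, each library left out, an adjusted p under 0.05, a change of at least 1, and KIF2A, KIF4B and KIF24 moved to the mitotic list. Protein sequences were not used here.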

Additional observations from a re-analysis of the deposited data

How the results depend on the processing

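All 12 mitotic kinesins were called lower, and none higher, under every alternative of scaling, test, filter and libraries. When single libraries were omitted their median log2 fold change ran from -1.80 to -1.76, that of the other kinesins from 0.05 to 0.13, and the difference from -1.91 to -1.82, with 6 other kinesins lower and 9 higher each time. Over all genes, 4514 to 4779 were then called lower and 4425 to 4561 higher. Among the other kinesins, 14 were higher and 9 lower at an adjusted p under 0.05, where all genes called higher were 6167 and all genes called lower 6187 of 17307. Requiring a change of at least 1 left 3 of them lower and 4 higher, and over all genes 1564 lower and 1435 higher. With KIF2A, KIF4B and KIF24 on the mitotic list, 1 of its genes (KIF2A) was higher. With the replicate number as a block, all 39 kinesins kept their call and direction, with 12 mitotic kinesins lower, so pairing changed no call. Scaling by library size only added KIF1A and KIF1C to the genes called, and upper-quartile scaling added KIF1A. Signs turned for some uncalled genes and list medians. Without control replicate 2, KIF13B had -0.024 and KIF25 -0.046, with ranges up to 0.060 and 1.16 over omitted libraries. Without control replicate 3, KIF16B had -0.0025, with a range up to 0.084. The median of the cilium and centriole kinesins was -0.24 with at least 10 counts in every library. With library size only, the medians of the promoter regulators and of dynein and dynactin were 0.00023 and 0.012. Upper-quartile scaling gave 0.0040 for dynein and dynactin. With at least 10 counts required in every library, 35 of the 39 kinesins were tested and kept their calls. KIF6, KIF7, KIF17 and KIF25 were not tested there, so KIF17 left the lower calls and KIF7 the higher ones. Depth limits KIF4B, KIF6, KIF7, KIF25 and KIF26A most, and KIF17 in OC2-OE libraries, beside KIF2B, which had no count. The causes were not tested.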

Other observations

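The other microtubule motor of cargo transport, cytoplasmic dynein with its partner dynactin, was read from a list of 28 genes. Of these, 9 were lower, 7 higher and 12 not called, shares near the 28.7% lower and 27.8% higher among all genes tested. The median was -0.04 on the log2 scale and turned to 0.012 with library size only and to 0.0040 with upper-quartile scaling. NDE1, which regulates dynein in mitosis and neural progenitors, went from 32.1 ± 1.82 to 13.5 ± 0.992 CPM (SD, n = 3), which is -1.25 on the log2 scale, and BICD2, an adaptor, had -0.52 among the called genes. DYNLT3, a light chain, and HOOK2, an adaptor, had 0.71 and 0.66. The heavy chain DYNC1H1 had 0.03 and was not called.

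Genes of intraflagellar transport, the traffic along cilia that kinesin-2 and dynein-2 drive, were higher or not called. Of 20 tested, 10 were higher and 10 not called by edgeR at an adjusted p under 0.001, beside 27.8% higher and 28.7% lower among all genes tested. The median log2 fold change was 0.29. WDR19 went from 27.1 ± 1.27 to 56.4 ± 1.81 CPM (SD, n = 3) and IFT172 from 9.55 ± 0.688 to 18.4 ± 0.539 CPM, which are 1.06 and 0.95 on the log2 scale. DYNC2H1, the dynein-2 heavy chain, rose by 0.86 on the log2 scale. KIF3B, the kinesin-2 subunit with the highest level, was lower in the same libraries.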
